A study of Homo sapiens with 24 samples.

Results

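The genes examined here encode 10 neuropeptides of sensory neurons: TAC1, CALCA, CALCB, VIP, NPY, NMU, PMCH, GAL, SST and ADCYAP1. They were taken from the count table by symbol, without use of their values. Each had 1 entry among the 36468 entries of the table, and all 10 were among the 29377 entries with a total of at least 10 counts over the libraries. PMCH, the precursor of melanin-concentrating hormone and best known from the hypothalamus, stands beside the classic sensory neuropeptides in this set.

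The cells were sensory neuron cultures grown from H9WAO9, an established line of human embryonic stem cells (H9), by way of vagal neural crest spheroids. Whole cultures were harvested for mRNA sequencing. Libraries with the same replicate number were taken as 1 batch of differentiation, which the labels do not name. This gave 6 batches, each with 1 culture per group. The 4 groups were Vehicle (bovine serum albumin in PBS), TGF-β (2 ng/ml for 5 days), IL-4+IL-13 (10 ng/ml IL-4 with 3 ng/ml IL-13 for 5 days) and IL-6, for which the labels state neither dose nor time. All 24 cultures come from the same cell line, so the spread between batches is that of repeated differentiations and not of donors.

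The libraries held 33342682 to 39817784 counts, with a median of 35775126. The cultures were mixed. The summed normalized counts of 12 pan-neuronal markers ranged from 85434 to 355526 in Vehicle, and those of 10 mesenchymal markers from 117354 to 383909. Of 18 sensory neuron markers, SCN10A was the only marker at 0 counts in any library. IL-4+IL-13 raised ALOX15, CCL26 and CISH (log2 fold changes of 10.58, 7.86 and 4.40), known targets of these cytokines, whereas none of the 8 treatment response genes was called with TGF-β or IL-6 against Vehicle. The Vehicle library of batch 2 stood apart: its deviations from the group means correlated at 0.0558 on average with the treated libraries of batch 2 and at 0.477 with those of batch 4. Changes of the 10 genes that rest on this library are therefore given with and without it.

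Neuropeptides are cut from larger precursors, packed in dense-core vesicles and released from both the central and the peripheral endings of sensory neurons. In the airways, substance P from TAC1 and calcitonin gene-related peptide from CALCA and CALCB act on vessels, glands and smooth muscle, a process known as neurogenic inflammation. Somatostatin and galanin mostly act through inhibitory receptors, whereas VIP and PACAP, the products of VIP and ADCYAP1, raise cAMP in their target cells.

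In Vehicle cultures, SST was the most abundant of the 10 transcripts per length, followed by TAC1. Divided by the exon length of the gene, SST had a median of 8836 normalized counts per kb (range 1369 to 19291) and TAC1 773 (280.5 to 3701). PMCH followed at 278 per kb (116 to 2007), ADCYAP1 at 255 (140 to 824) and GAL at 203 (124 to 563), and the ranges of these 3 genes overlapped. NMU, VIP, CALCA, NPY and CALCB lay far lower, with medians of 26.8, 15.6, 10.0, 4.31 and 0.737 per kb and overlapping ranges. Per length, SST stood above TAC1 in every library of the study. In counts not divided by length, TAC1 exceeded SST with IL-6 and IL-4+IL-13 in batch 1 and with IL-4+IL-13 in batch 2. Raw counts of the lower group were small: CALCA had 4 to 43 counts per Vehicle library, VIP 0 to 65, NPY 0 to 29 and CALCB 0 to 8, where a count of 0 allows up to 3. Because RNA came from whole cultures, fewer cells of a type and less RNA per cell cannot be told apart at any of these levels.

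**Figure D1:**
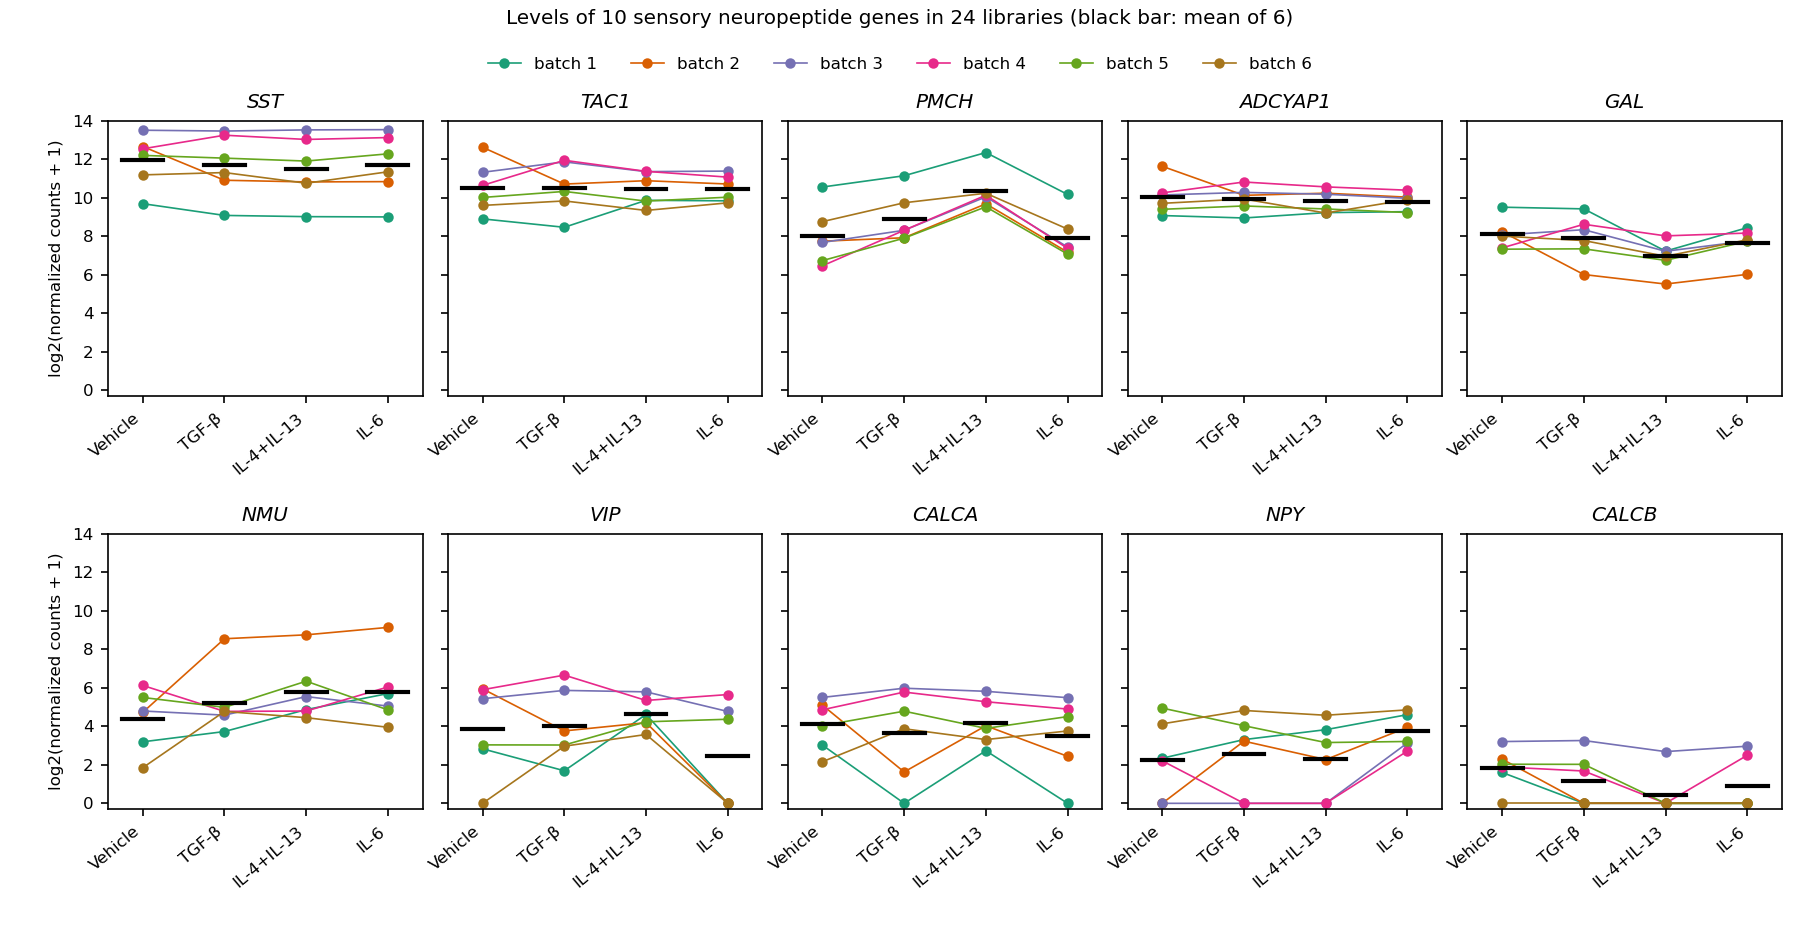
Each panel shows 1 gene; the vertical axis is log2(normalized counts + 1), points are single libraries joined by batch across the 4 groups on the horizontal axis, and black bars are means of 6 libraries. PMCH is the gene whose lines peak at IL-4+IL-13 in all 6 batches (mean 10.34 against 8.0 in Vehicle), whereas SST and TAC1 differ more between batches than between groups.

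PMCH rose with IL-4+IL-13 in every batch. It had 97 to 1484 counts in the Vehicle libraries (median 209) and 749 to 5570 with IL-4+IL-13 (median 1097.5). By batch from 1 to 6, the Vehicle cultures had 1484, 219, 199, 97, 103 and 501 counts, and the IL-4+IL-13 cultures of the same batches 5570, 862, 976, 1222, 749 and 1219. The groups overlapped through batch 1 alone: in the other 5 batches no Vehicle library exceeded 501 counts and no IL-4+IL-13 library fell below 749. The mean level was 8.0 ± 1.5 (SD, n = 6) in Vehicle and 10.34 ± 1.03 with IL-4+IL-13, as log2(normalized counts + 1). The fitted log2 fold change was 2.31 (SE 0.20, a 4.97-fold rise), with an adjusted p of 6.05e-06 in edgeR's quasi-likelihood test over all entries. The ratio to Vehicle of the same batch was 3.46, 3.84, 5.16, 12.7, 6.94 and 2.78 from batch 1 to batch 6. The largest ratio belonged to batch 4, which had the lowest Vehicle count, and the smallest to batch 6. PMCH was the only gene of the 10 called by edgeR in this comparison (adjusted p under 0.05 and more than a 2-fold change), where 0.371% of all entries were called, and 2.30% of entries were higher in every batch. Without the Vehicle library of batch 2, the log2 fold change was 2.41.

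TGF-β moved PMCH the same way in all 6 batches, by a smaller amount that did not pass the test. The TGF-β cultures had 2039, 232, 333, 289, 234 and 880 counts from batch 1 to batch 6, each above its Vehicle culture, at ratios from 1.13 to 3.59. In this comparison 1.66% of all entries were higher in every batch. The fitted log2 fold change was 0.84 (SE 0.19, 1.80-fold), with an adjusted p of 0.0711 in edgeR. DESeq2 gave an adjusted p of 0.00358 with a log2 fold change of 0.85, under the 2-fold threshold, and called none of the 10 beside 0.797% of all entries. None of the 10 genes was called with TGF-β (0.143% of all entries were), and PMCH was the only gene of the 10 with an unadjusted p under 0.05, which 7.29% of all entries had. With IL-4+IL-13, 4 of the 10 had one (PMCH, GAL, CALCB and SST), beside 9.10% of all entries.

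The IL-6 cultures had 1091, 130, 178, 178, 130 and 345 PMCH counts, higher than Vehicle in 2 batches and lower in 4. The log2 fold change was -0.12 (SE 0.20, adjusted p = 0.926 in edgeR), or -0.034 without the Vehicle library of batch 2. edgeR called 0 of the 10 genes with IL-6 and 0% of all entries, with 0 of the 10 and 1400 of all entries at an unadjusted p under 0.05. DESeq2 called 120 entries in that comparison (0.408%), none of them among the 10. The 3 treatments share their Vehicle cultures, so the contrasts with Vehicle are not independent of each other.

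Set directly against each other, the treated groups differed in PMCH. TGF-β lay below IL-4+IL-13 in all 6 batches, with a log2 fold change of -1.47 (SE 0.19, adjusted p = 0.000162 in edgeR). PMCH was the only gene of the 10 called there, against 1.18% of all entries, and 5.32% of entries were lower in every batch. IL-4+IL-13 exceeded IL-6 by 2.44 on the log2 scale (SE 0.20, adjusted p = 2.62e-06 in edgeR, higher in 6 of 6 batches), again the only call among the 10, against 0.279% of all entries. TGF-β against IL-6 gave 0.97 (SE 0.19, adjusted p = 0.0574 in edgeR, higher in 6 of 6 batches), and none of the 10 genes was called against 0.0306% of all entries. Of all entries, 3.62% were higher in every batch with TGF-β than with IL-6, and 2.47% with IL-4+IL-13 than with IL-6.

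**Figure D2:**
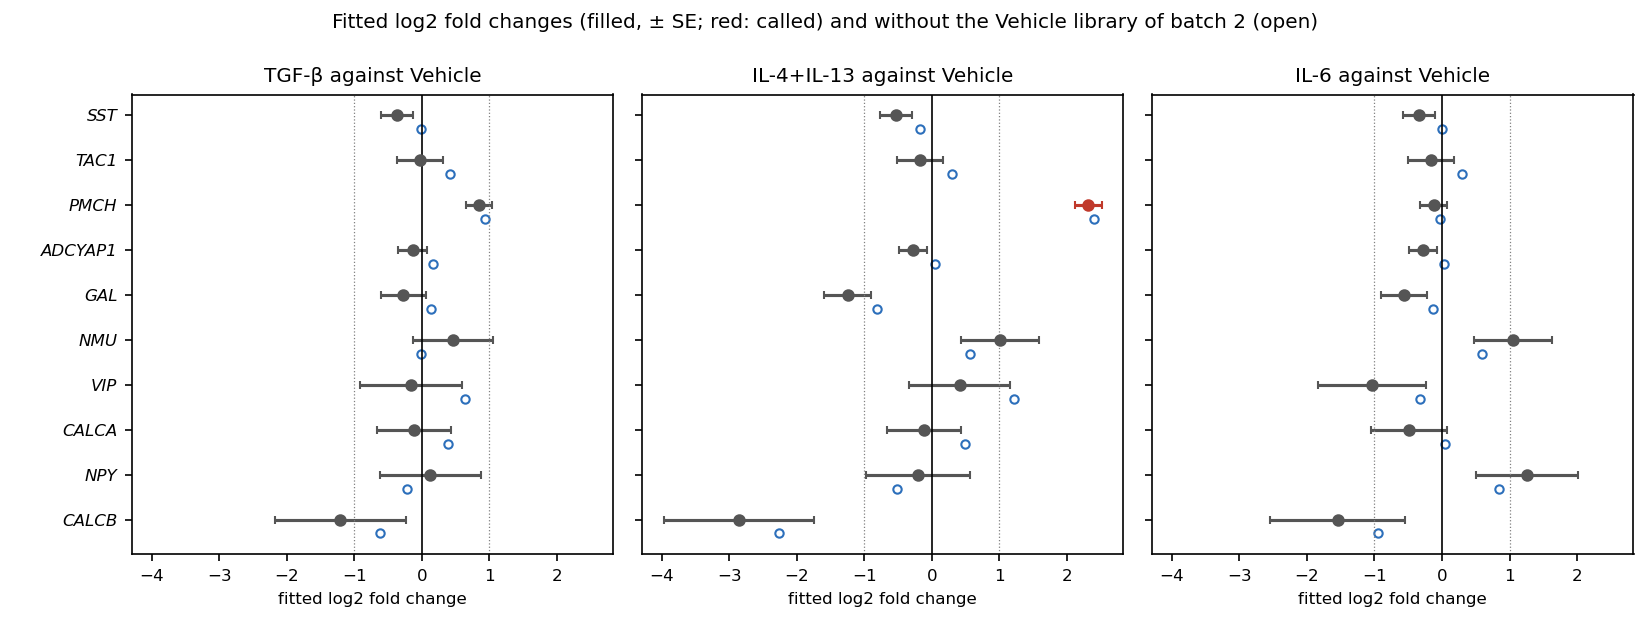
Fitted log2 fold changes (horizontal axis) of the 10 genes (vertical axis) against Vehicle in 3 panels; filled points are estimates from all libraries with bars of 1 SE, open points the same fit without the Vehicle library of batch 2, and dotted lines a 2-fold change. PMCH with IL-4+IL-13, at 2.31, is the red point and the only gene called, and its open point lies close by at 2.41.

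PMCH lies on the minus strand of chromosome 12 of GRCh38.p14 (102196459 to 102197833). The neighbouring gene PARPBP, a DNA repair factor on the opposite strand, spans 102120183 to 102197520 and shares 1062 bases with PMCH, so that unstranded counting could not separate reads from the overlap. PARPBP itself was chosen for mention after its values were seen. It had 62 to 137 counts in Vehicle and 125 to 591 with IL-4+IL-13, fewer than PMCH in each IL-4+IL-13 library, and the library with the most counts of both genes was the IL-4+IL-13 culture of batch 1. In some libraries of the other groups the genes lay close. PARPBP had 96 counts against 97 of PMCH in the Vehicle culture of batch 4, and 214 against 232 in the TGF-β culture of batch 2. Only in the IL-6 culture of batch 2 did PARPBP exceed PMCH, with 204 counts against 130. Its log2 fold change was 1.20 with IL-4+IL-13 (SE 0.20, adjusted p = 0.00462 in edgeR, higher in 6 of 6 batches), 0.55 with TGF-β (adjusted p = 0.434) and 0.40 with IL-6 (adjusted p = 0.85). How many reads the genes share was not tested.

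Promoter windows from RefSeq were matched for 8 of the 10 genes (CALCB and GAL were not matched), and the 250 bases before each start were searched on both strands. The windows of PMCH, the gene that moved, of SST, the most abundant, and of TAC1 and CALCA, which encode the classic sensory peptides, are shown 5′ to 3′ on the strand of the gene. Capitals mark TTCNNNGAA in PMCH (chr12:102197834-102198083, minus strand), TGACGTCA in SST (chr3:187670395-187670644, minus strand) and TGACGCAA, read on the opposite strand in TAC1 (chr7:97731836-97732085, plus strand) and on the gene's strand in CALCA (chr11:14972352-14972601, minus strand), all in GRCh38.p14.
PMCH: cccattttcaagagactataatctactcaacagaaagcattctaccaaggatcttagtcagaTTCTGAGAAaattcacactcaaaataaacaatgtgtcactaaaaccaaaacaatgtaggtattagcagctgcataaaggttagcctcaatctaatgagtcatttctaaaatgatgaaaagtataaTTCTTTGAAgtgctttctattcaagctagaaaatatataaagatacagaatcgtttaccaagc
SST: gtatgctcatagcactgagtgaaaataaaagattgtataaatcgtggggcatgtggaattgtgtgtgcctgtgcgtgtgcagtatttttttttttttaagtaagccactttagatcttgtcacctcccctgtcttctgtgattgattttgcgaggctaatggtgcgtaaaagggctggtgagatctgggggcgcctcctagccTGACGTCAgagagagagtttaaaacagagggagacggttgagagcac
TAC1: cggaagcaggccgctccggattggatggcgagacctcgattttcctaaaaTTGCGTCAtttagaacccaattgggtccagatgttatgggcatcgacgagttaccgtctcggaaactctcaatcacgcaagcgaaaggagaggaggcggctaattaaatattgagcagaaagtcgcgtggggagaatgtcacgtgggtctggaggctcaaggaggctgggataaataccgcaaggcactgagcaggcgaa
CALCA: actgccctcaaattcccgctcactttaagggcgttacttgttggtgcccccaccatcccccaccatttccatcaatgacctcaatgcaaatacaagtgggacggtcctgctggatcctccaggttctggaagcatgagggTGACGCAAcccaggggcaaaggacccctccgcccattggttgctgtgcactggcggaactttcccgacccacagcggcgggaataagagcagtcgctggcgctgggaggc

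TGACGTCA is the palindromic cAMP response element, and SST was the only gene of the 8 to hold it, 47 bases before its start, as did 1.646% of 35116 promoter windows. TGACGCAA, a variant of that element, stood 110 bases before the start of CALCA and 200 before that of TAC1, and in 0.4784% of windows. The short core TGACG, which both longer motifs contain, was in 5 of the 8 genes (ADCYAP1, CALCA, SST, TAC1 and VIP) and in 21.22% of windows. For ADCYAP1, windows of different starts were searched, and the match stood 238 bases before only 1 of these starts. TATAAA, the letters of the TATA box, was in PMCH, SST and VIP and in 10.72% of windows. It lay 28 bases before the start of PMCH, 215 before that of SST and 157, 147 and 30 before that of VIP. TTCNNNGAA, a palindrome of STAT binding sites, was searched after the values of PMCH had been seen. It was in PMCH only, 188 and 63 bases before the start, and in 6.567% of windows. The form with 1 more base between the arms was in 0 of the 8 genes and in 5.376% of windows. These matches describe the letters of the windows, and absence of a match says only that those letters are not there.

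TAC1, the precursor of substance P and neurokinin A, did not differ from Vehicle beyond its spread in any group. Vehicle libraries had 471 to 6474 counts (median 1393), and the medians were 1435.5 with TGF-β, 1489.5 with IL-4+IL-13 and 1269 with IL-6. The 4 group means lay between 10.45 and 10.53 on the log2 scale, within 0.08 of each other, whereas the SD within a group was 0.69 to 1.33. Fitted log2 fold changes were -0.02 with TGF-β, -0.18 with IL-4+IL-13 and -0.16 with IL-6 (SE 0.34 each). The highest value of TAC1 was the Vehicle library of batch 2, with 6474 counts against 1523 to 1983 in the treated cultures of that batch. Without that library the changes were 0.42, 0.30 and 0.30.

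The CGRP genes had low counts. CALCA, whose counts do not separate the calcitonin from the CGRP transcript, had medians of 23 counts in Vehicle, 20 with TGF-β, 15 with IL-4+IL-13 and 17 with IL-6, and its log2 fold changes were -0.12, -0.11 and -0.49 (SE 0.55, 0.55 and 0.56). Without the Vehicle library of batch 2 all 3 signs turned, to 0.38, 0.48 and 0.039. It ranged from 0 in the TGF-β and IL-6 libraries of batch 1 to 65 in the TGF-β library of batch 3. CALCB, the gene of β-CGRP, had 0 to 8 counts in Vehicle and 0 to 5 with IL-4+IL-13, where 5 of 6 libraries were at 0 and the library of batch 3 had all 5 counts. A fold change is not given for counts this low. Its adjusted p with IL-4+IL-13 was 0.429 in edgeR.

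SST, which encodes somatostatin, had 815 to 11366 counts in Vehicle (median 5613.5), and medians of 3401.5 with TGF-β, 2895.5 with IL-4+IL-13 and 3779.5 with IL-6. The ranges of all 4 groups overlapped almost entirely. Fitted log2 fold changes were -0.37, -0.54 and -0.35 (SE 0.24 each), with adjusted p values of 0.84, 0.51 and 0.85 in edgeR. These changes rested on the Vehicle library of batch 2, which had 6650 counts against 1660 to 1898 in its treated cultures. Without it they were -0.02, -0.17 and 0.01.

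GAL, which encodes galanin, was the gene nearest to a call after PMCH. Vehicle libraries had 156 to 718 counts (median 279), and IL-4+IL-13 libraries 47 to 282 (median 131). The IL-4+IL-13 culture was the lower of the pair in 5 of 6 batches and the higher in batch 4, where it had 282 counts against 186. The fitted log2 fold change was -1.25 (SE 0.35), with an adjusted p of 0.161 in edgeR and of 0.0134 in DESeq2, which called 0.994% of all entries. Without the Vehicle library of batch 2 the value was -0.81, with an adjusted p of 0.268 in edgeR. TGF-β and IL-6 gave -0.27 and -0.56 (adjusted p = 0.964 and 0.85), and 0.13 and -0.14 without that library. Against IL-4+IL-13 directly, the TGF-β cultures had more GAL in all 6 batches (log2 fold change 0.98, SE 0.34, adjusted p = 0.169 in edgeR), a direction that 4.48% of all entries showed in every batch. IL-6 cultures also had more than IL-4+IL-13 cultures in all 6 batches (a log2 change of -0.69 for IL-4+IL-13 against IL-6, SE 0.34, adjusted p = 1.0), where 2.04% of entries were lower in every batch.

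ADCYAP1, the PACAP gene, had the narrowest range of batch means of the 10. It had 531 to 3262 counts in Vehicle (median 1036.5), and the medians of the treated groups lay between 884 and 1040. Log2 fold changes were -0.14 with TGF-β, -0.28 with IL-4+IL-13 and -0.28 with IL-6 (SE 0.21 each), and 0.17, 0.05 and 0.03 without the Vehicle library of batch 2, which held the highest count of 3262. VIP, encoding the related vasoactive intestinal peptide, had medians of 24 counts in Vehicle, 9.5 with TGF-β, 21.5 with IL-4+IL-13 and 9.5 with IL-6, and was at 0 in 3 of 6 IL-6 libraries. Its log2 fold changes of -0.16, 0.41 and -1.03 had standard errors of 0.75 to 0.80, and without the Vehicle library of batch 2 they were 0.64, 1.21 and -0.32.

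NPY and NMU also had values too spread for a call. NPY, a peptide typical of sympathetic neurons, had 0 to 29 counts in Vehicle and 6 to 29 with IL-6, with a log2 fold change of 1.26 for IL-6 (SE 0.75, higher in 5 of 6 batches, adjusted p = 0.85 in edgeR). Its change was 0.13 with TGF-β and -0.20 with IL-4+IL-13, and without the Vehicle library of batch 2 the 3 values were -0.21, -0.52 and 0.85, with that of IL-6 last. NMU, which encodes neuromedin U, a neuronal activator of type 2 innate lymphoid cells, had 3 to 76 counts in Vehicle. In batch 2 its treated cultures had 357 to 508 counts while the Vehicle culture had 26. Log2 fold changes were 0.47 with TGF-β, 1.00 with IL-4+IL-13 and 1.05 with IL-6 (SE 0.58 to 0.59, adjusted p of 0.964, 0.639 and 0.85), and -0.01, 0.57 and 0.60 without that Vehicle library. VIP, NPY, GAL and ADCYAP1 each overlap the span of a long noncoding RNA gene in the annotation. Whether the exons overlap, on which strand, and how many reads are shared was not tested.

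The median log2 fold change of the 10 genes was -0.13 with TGF-β, -0.19 with IL-4+IL-13 and -0.31 with IL-6, beside -0.01 for all entries in each comparison. Of the 10, 7, 7 and 8 lay below 0. Both rest on the Vehicle library of batch 2: without it the medians were 0.15, 0.17 and 0.018, and 4 of the 10 lay below 0 in each comparison. PMCH was the upper end of the range after TGF-β and after IL-4+IL-13, and NPY after IL-6.

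By group medians of the per-length level, PMCH had rank 3 in Vehicle and with TGF-β, rank 2 with IL-4+IL-13 and rank 4 with IL-6. With IL-4+IL-13 its median was 1451 per kb and that of TAC1 829, but PMCH exceeded TAC1 only in batches 1, 5 and 6. In batches 2, 3 and 4 of that group it lay just below TAC1. In Vehicle, PMCH already exceeded TAC1 in batches 1 and 6. With IL-6, the medians of PMCH (225 per kb) and ADCYAP1 (254 per kb, rank 3) were close and their ranges overlapped. Of the summed per-length level of the 10 genes, PMCH made up a median of 1.68% in Vehicle (1.01 to 45.8%) and 15.1% with IL-4+IL-13 (6.12 to 80.0%). SST made up 79.2% in Vehicle (31.3 to 89.1%) and 66.3% with IL-4+IL-13 (9.87 to 84.9%). In batch 1, PMCH exceeded SST per length in all 4 cultures, from 44.8% with IL-6 to 80.0% with IL-4+IL-13, whereas in batches 2 to 6 SST was the larger share in each culture.

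**Figure D3:**
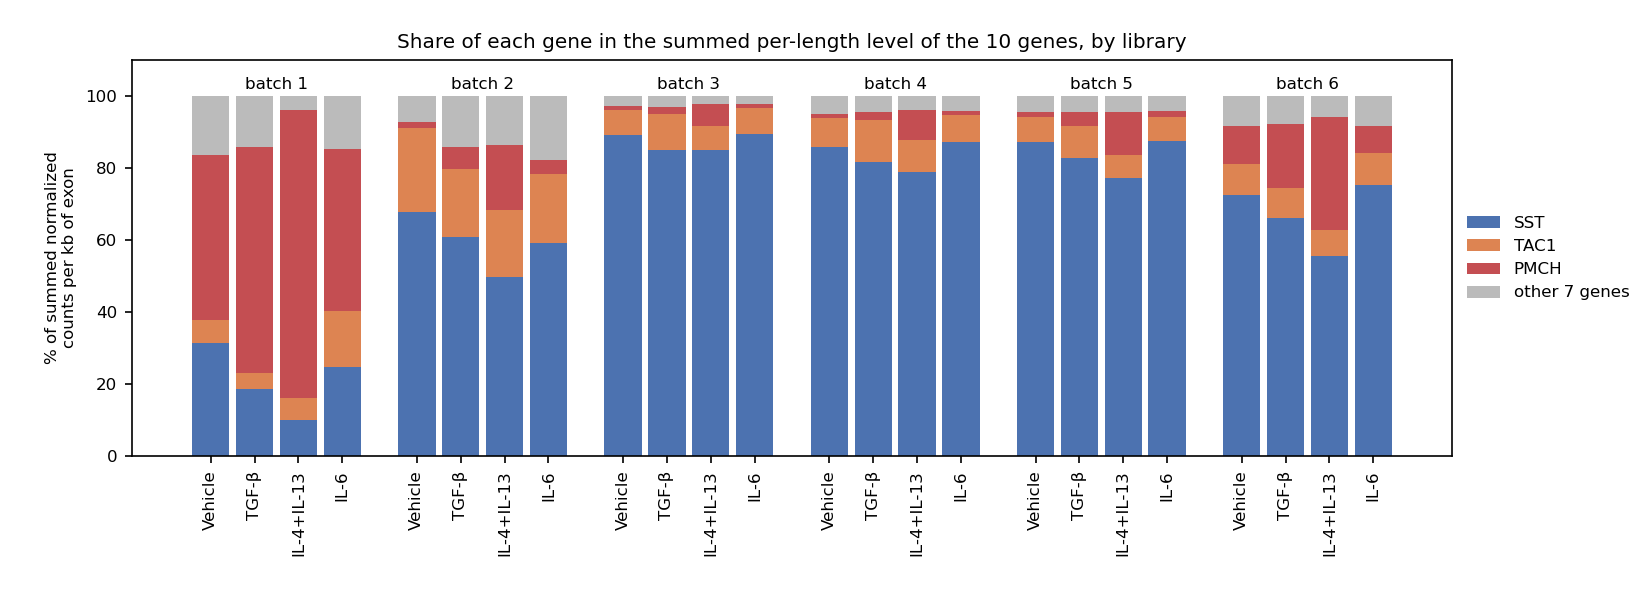
Each bar is 1 library, grouped by batch, and divides the summed normalized counts per kb of exon of the 10 genes (vertical axis, percent) into SST, TAC1, PMCH and the other 7 genes. PMCH takes 44.8 to 80.0% of the batch 1 bars, and in each batch its share is largest in the IL-4+IL-13 bar.

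All 10 genes differed between batches at an adjusted p under 0.05 in edgeR's test of the batch terms, as did 56.8% of all entries. The adjusted p was 3.46e-09 for PMCH, 5.81e-08 for SST and at most 0.0108 (CALCB). For 9 of the 10 genes the batch means spanned a wider range than the group means by more than 1 unit on the log2 scale. SST ranged 19.8-fold between batch means, from 9.21 in batch 1 to 13.52 in batch 3, and 1.37-fold between group means. NMU ranged 16.4-fold, TAC1 4.64-fold, GAL 4.61-fold and ADCYAP1 2.59-fold between batch means. CALCA, CALCB, VIP and NPY had libraries at 0 counts in their lowest batch, and no fold is given for them. PMCH ranged 9.48-fold between batch means, from 7.82 in batch 5 to 11.06 in batch 1, and 5.26-fold between group means, the widest group range of the 10.

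The peptides did not follow the batches alike. TAC1, CALCA, SST and ADCYAP1 had their lowest mean in batch 1, where PMCH and GAL had their highest. Over the 6 batch means, CALCA and SST went together at Pearson r = 0.998, TAC1 and ADCYAP1 at 0.904, and PMCH and SST in opposite directions at -0.828. These points share their libraries and their mixture of cells, and CALCA rests on few counts.

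By the same measure over libraries, after the mean of each batch was taken out, the genes most like PMCH among 13121 compared were COL6A1 (r = 0.914, or 0.935 without the Vehicle library of batch 2), APAF1 (0.909 and 0.911) and IGF1 (0.909 and 0.949), over 24 and 23 libraries. NECAP1, DNAJC6 and RAPGEF4 were most like TAC1 (0.969, 0.969 and 0.964), and stayed at 0.933 or above without that library. JUP, GRN and LAMC1 were most like GAL (0.962, 0.949 and 0.945). For SST, the nearest genes PWWP2B, TJP3 and GPX3 fell from 0.949, 0.947 and 0.947 to 0.815, 0.861 and 0.799 without that library, and for ADCYAP1, NEFH, C1orf216 and ADORA1 went from 0.964, 0.961 and 0.953 to 0.872, 0.887 and 0.852. Over the 6 batch means, the nearest genes were ATPAF2, CINP and PTPRA for PMCH (0.998, 0.997 and 0.996), SNX10, PGM2L1 and TTLL11 for SST (0.999 each), RPP40, PAFAH1B2 and SYNDIG1 for TAC1 (0.996 each), LARP4B, UHMK1 and LPP for GAL (0.994, 0.991 and 0.988), and CS, USP7 and DHCR7 for ADCYAP1 (0.979, 0.978 and 0.976). With 13121 genes and 6 points, values this high are a description only.

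Of all entries, edgeR called 0.371% with IL-4+IL-13, 0.143% with TGF-β and 0% with IL-6. Among the 27 receptor genes for these peptides, 1 was called with IL-4+IL-13 and none with TGF-β or IL-6. This was RAMP1, the accessory subunit that turns CALCRL into the CGRP receptor. It had 63 to 198 counts in Vehicle and 168 to 306 with IL-4+IL-13, a log2 fold change of 1.04 (SE 0.22, adjusted p = 0.0255 in edgeR, higher in 6 of 6 batches). This value sits at the 2-fold threshold, and the call was made in 8 of 14 alternative analyses. In TGF-β against IL-4+IL-13, RAMP1 and RAMP3 were lower in all 6 batches (by log2 changes of -1.10 for RAMP1 and -1.38 for RAMP3, adjusted p = 0.00528 and 0.000889 in edgeR). In IL-4+IL-13 against IL-6, RAMP1 was higher (1.05, adjusted p = 0.0283 in edgeR), a call made in 7 of 14 alternatives. Of all entries, 1.18% were called in the former comparison and 0.279% in the latter. CALCRL itself gave -0.30 with TGF-β, -0.12 with IL-4+IL-13 and -0.02 with IL-6 (adjusted p = 0.567, 0.834 and 0.983). MCHR1, the receptor of melanin-concentrating hormone, gave -0.08, -0.50 and -0.39 in the same order and was not called. Without the Vehicle library of batch 2 these values were 0.28, -0.11 and -0.026, and MCHR1 was higher than Vehicle in 4 of 6 batches with TGF-β and in 4 with IL-4+IL-13. MCHR1 was well above the floor, with 489 to 1829 counts in Vehicle. CALCRL and MCHR1 were chosen for mention after their values were seen. The median log2 fold change of the 27 receptors was -0.21, -0.12 and -0.06, beside -0.01 for all entries, and -0.22, -0.013 and 0.019 without that library.

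**Figure D4:**
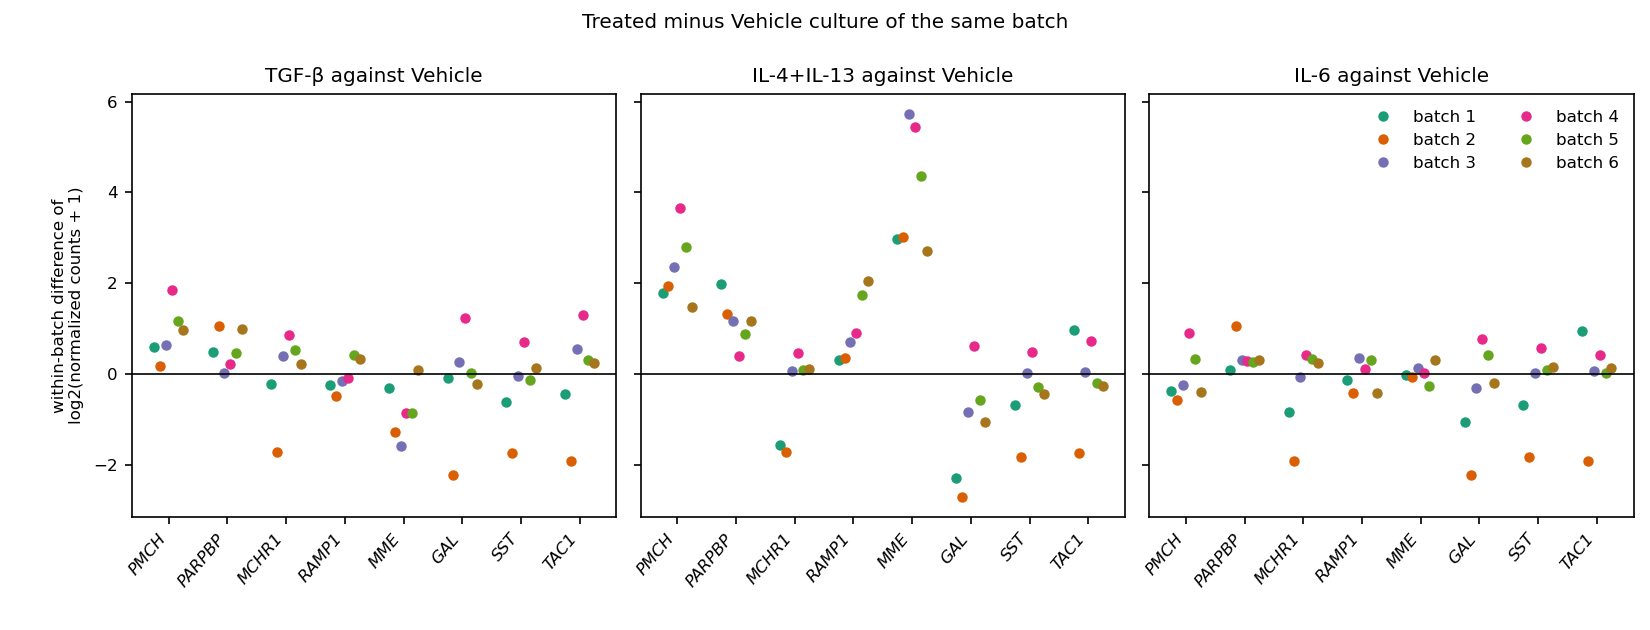
Differences of log2(normalized counts + 1) between each treated culture and the Vehicle culture of its batch (vertical axis) for 8 genes (horizontal axis), 1 point per batch, in 3 panels of treatment. With IL-4+IL-13, PMCH, PARPBP, RAMP1 and MME lie above 0 in all 6 batches, and SST and TAC1 on both sides of 0.

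Of 12 enzymes that degrade peptides, MME, which encodes neprilysin and cleaves substance P, was called with IL-4+IL-13. It had 161 to 389 counts in Vehicle and 1998 to 10747 with IL-4+IL-13, with no overlap, a log2 fold change of 4.33 (SE 0.49, 20.1-fold, adjusted p = 0.000214 in edgeR). It was also called against TGF-β and against IL-6. Of all entries, 0.371% were called with IL-4+IL-13 against Vehicle, 1.18% against TGF-β and 0.279% against IL-6. ANPEP, an aminopeptidase, was lower after TGF-β than after IL-4+IL-13 (-1.68, SE 0.40, adjusted p = 0.0241 in edgeR), a call made in 8 of 14 alternatives and lost with no block or without batch 1, 3, 4, 5 or 6. Without the Vehicle library of batch 2, ANPEP was also called with IL-4+IL-13 against Vehicle (1.40, adjusted p = 0.0178, compared with 0.78 and 0.584 from all libraries). The other enzymes of this list were not called in any comparison, and the list's median log2 fold change was -0.05, -0.01 and -0.09 against Vehicle.

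The genes that make and store the peptides were not called in any comparison: 0 of 14 processing enzymes and 0 of 19 dense-core vesicle genes by edgeR. Of all entries, edgeR called 0 to 1.18% per comparison. At an unadjusted p under 0.05, 1 of the processing enzymes and 1 of the vesicle genes were found with TGF-β, 3 and 2 with IL-4+IL-13, and 1 and 0 with IL-6, beside 7.29, 9.10 and 4.77% of all entries. CPE and PAM, which trim and amidate the peptides, were the most abundant of the former, with 8741 to 25825 and 10539 to 18862 counts in Vehicle and log2 fold changes of -0.18 and 0.13 with IL-4+IL-13 (adjusted p = 0.816 and 0.604), or 0.11 and 0.091 without the Vehicle library of batch 2. SCG2 and SYT4, a granin and a vesicle synaptotagmin, gave -0.72 and -0.15 (adjusted p = 0.482 and 0.884), or -0.20 and 0.12 without it. Of 42 other neuropeptide genes, 39 were tested and none was called from all libraries; without the Vehicle library of batch 2, CRH was called in each comparison of IL-4+IL-13 with another group. CARTPT and PENK, the most abundant of them, gave -0.91 and -0.40 with IL-4+IL-13 (adjusted p = 0.542 and 0.733), or -0.18 and -0.36 without that library. None of the 17 CREB and cAMP-responsive factors was called either, and ATF4 and JUND, the most abundant, gave 0.10 and -0.03 (adjusted p = 0.722 and 0.944).

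Markers of cell types were set beside PMCH because the cultures were mixed. None of the 12 pan-neuronal markers was called in any comparison, where edgeR called 0 to 1.18% of all entries. The summed level of these markers was 85434 to 355526 in Vehicle and 138689 to 330998 with IL-4+IL-13. Of the sensory markers, RUNX1, a transcription factor of nociceptors, was higher after TGF-β than after IL-4+IL-13 (log2 fold change 1.94, adjusted p = 0.000271 in edgeR). With TGF-β against Vehicle, RUNX1 was not called from all libraries (1.03, adjusted p = 0.117 in edgeR) and was called without the Vehicle library of batch 2 (1.37, adjusted p = 0.00602). None of the 9 hypothalamic markers tested was called. Their summed level was 4008 to 58429 in Vehicle and 4968 to 17944 with IL-4+IL-13, most of it CARTPT and LHX9, and NKX2-1 was at 0 in every library. Of 6 epithelial markers, only CDH1 was called with IL-4+IL-13 against Vehicle (log2 fold change -1.89, adjusted p = 0.00957 in edgeR). This call was made in 10 of 14 alternatives. It was lost with no block, without batch 1 or batch 3, and in the fit without the IL-6 libraries. The median log2 fold change of the 6 markers was -0.21, or -0.08 without the Vehicle library of batch 2. Their summed level had a median of 13755 in Vehicle and 13960 with IL-4+IL-13. None of the noradrenergic, cholinergic, smooth muscle, pluripotency or proliferation markers was called in any comparison. The summed proliferation markers had a median of 1592 in Vehicle, 1800 with TGF-β, 2268 with IL-4+IL-13 and 2466 with IL-6. Their median log2 fold changes were 0.54, 0.97 and 0.89 in the same order, or 0.21, 0.65 and 0.57 without the Vehicle library of batch 2. The part of the marked cell types in the values of PMCH was not tested.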

How the data were processed

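The authors deposited raw counts per gene for 24 libraries. Their sequencing provider trimmed the adapters with Trimmomatic 0.30, mapped the reads, sequenced on an Illumina NovaSeq instrument, to GRCh38.p14 and made the counts. Which aligner and counter were used, and whether the libraries were stranded, is not given in the sources used here. The table holds 36468 entries, of which 13161 are unnamed NewGene loci. Entries with the same symbol were kept apart.

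Counts were tested with edgeR 4.0.16 in R 4.3.3 (TMM scaling, entries with a total of at least 10 counts, batch and treatment as terms over all libraries, robust quasi-likelihood F test, Benjamini-Hochberg adjustment over 29377 entries). Calls needed an adjusted p under 0.05 together with more than a 2-fold change. A standard error (SE) is the size of the fitted change divided by the root of its F value. Levels are log2(normalized counts + 1) with size factors of DESeq2 1.42.0, which was also run as a second test. Levels per length were divided by the summed exon length in the GENCODE annotation. Positions and promoter windows come from RefSeq for GRCh38.p14.

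Libraries were paired by replicate number, taken as the batch of differentiation. Deviations from the group means correlated at a median of 0.638 within batches (36 pairs of libraries) and of -0.171 between batches (240 pairs, 16900 genes), so batch stands in the model as the block. The Vehicle library of batch 2 did not follow this, with a mean of 0.0558 with the treated libraries of batch 2 and 0.477 with those of batch 4. Whether its pairing is right was not tested.

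All 10 genes are named. Of each other list, the called genes were named, at most 4 per comparison by size of change, and otherwise the 2 most abundant; some called marker genes are not reported here. The nearest genes were the 3 with the highest Pearson r, among named genes with a median of at least 50 counts. The genes and lists were chosen with earlier results of these data known. The script was tested on simulated counts. Alternatives were another scaling, no filter on low counts, DESeq2, no block, 1 entry per symbol, fewer groups in the fit, each batch left out in turn, the Vehicle library of batch 2 left out and TMM-scaled levels. After the data were seen, leaving out batches 1 and 2 together was added. Intervals of counts cover counting error only.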

Additional observations from a re-analysis of the deposited data

Results flagged for a closer look

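In 4 of 40 sets of 6 libraries (10 genes in 4 groups), the highest or lowest library lay far from the other 5 by Dixon's criterion, which chance meets in about 1 of 20 sets. Levels are log2(normalized counts + 1). PMCH in the IL-4+IL-13 culture of batch 1 stood at 12.36, with the next library at 10.24; without batch 1, PMCH was still called in that group. NMU in the TGF-β culture of batch 2 stood at 8.55, with the next at 4.99, and GAL in the IL-6 culture of batch 2 at 6.03, below the next at 7.75. CALCB in the IL-4+IL-13 culture of batch 3 stood at 2.69, from 5 counts, with the other 5 libraries at 0.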

How the results depend on the processing

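PMCH was called with IL-4+IL-13 against Vehicle, TGF-β and IL-6 in 13 of 14 alternatives each. The exception was the fit with no replicate block, which called 0 of the 10 genes in each of these comparisons, with PMCH at 2.00, -1.27 (TGF-β against IL-4+IL-13) and 2.28 and an adjusted p of 1.0; batch differences then enter the spread. Leaving out each batch gave an adjusted p of 1.17e-05 to 0.000399 for IL-4+IL-13 against Vehicle. DESeq2 called 2 genes in that comparison, GAL being the second. With 1 batch left out, 1 to 2 genes were called there and in TGF-β against IL-4+IL-13: GAL was added without batch 4 in the former and without batch 2 in the latter.

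Apart from GAL without batch 4, no other of the 10 genes was called against Vehicle by edgeR in any of these alternatives, and the signs of several changed with the settings. In the fit without the IL-6 libraries, TAC1 and CALCA with TGF-β were 0.013 and 0.0066. With no block, CALCA was 0.27 with TGF-β and 0.060 with IL-4+IL-13, and VIP 0.077 and -0.10. With batches 1 and 2 left out, TGF-β gave 0.59 for TAC1, 0.90 for CALCA, 0.75 for VIP, -0.54 for NPY, -0.072 for NMU, 0.29 for GAL, 0.15 for SST and 0.27 for ADCYAP1; IL-4+IL-13 gave 0.080 for TAC1 and 0.39 for CALCA; and IL-6 gave 0.15 for TAC1, 0.44 for CALCA, 0.082 for VIP, 0.091 for PMCH, 0.14 for GAL, 0.21 for SST and 0.0090 for ADCYAP1. With 1 batch or the Vehicle library of batch 2 left out, the log2 fold changes with TGF-β ranged from -0.29 to 0.45 for TAC1, -0.44 to 0.53 for CALCA, -0.45 to 0.64 for VIP, -0.28 to 0.74 for NPY, -0.018 to 1.08 for NMU, -0.48 to 0.17 for GAL and -0.26 to 0.19 for ADCYAP1. With IL-4+IL-13 they ranged from -0.41 to 0.30 for TAC1, -0.28 to 0.48 for CALCA, -0.65 to 0.55 for NPY and -0.38 to 0.045 for ADCYAP1, and with IL-6 from -0.38 to 0.31 for TAC1, -0.85 to 0.091 for CALCA, -0.50 to 0.024 for SST and -0.38 to 0.041 for ADCYAP1. The cause of these changes was not tested. CALCB, NPY, VIP and CALCA rest on few counts, and the smallest change that could have been detected was not tested.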
